A study of Homo sapiens with 6 samples.

Results

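The genes described here encode the proteins of the cytosolic ribosome. They were chosen by symbol among the protein-coding genes of the count table, as RPL, RPLP or RPS followed by a number, with the usual paralogue suffixes, plus RPSA, and without the RPS6K kinases. The rule found 87 genes among 60504 in the table, 53 of the large subunit and 34 of the small subunit. Of these, 77 are core genes, 46 large and 31 small, and 10 are paralogues with an L or Y suffix. The rule used no measured value.

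RNA was measured in SK-MEL-28 cells, an established human melanoma line, in 3 libraries labelled EV and 3 labelled HDAC8. The EV-labelled cells carried the control plasmid and the HDAC8-labelled cells carried a plasmid for forced expression of HDAC8, a class I histone deacetylase. Both kinds of cells were transfected and, per the study's Methods, kept in hygromycin, and no time or dose is given. The comparison asks which genes differ in level between the HDAC8-labelled and the EV-labelled libraries.

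The targeted gene did not separate the groups. HDAC8 stood at 14.5 ± 2.48 CPM (counts scaled to a common library size of 1e6) in the EV-labelled and 14.3 ± 0.881 CPM in the HDAC8-labelled libraries (SD, n = 3 each), with a log2 fold change of -0.02 (SE 0.13, edgeR adjusted p = 0.924). The counts are summed per gene, and whether they take in reads from the plasmid was not tested. For this reason the groups are named by their labels throughout. Melanocytic genes were present in every library, with MITF between 826 and 963 CPM, SOX10 between 631 and 804 CPM and PMEL between 3983 and 5541 CPM. The epithelial and immune markers EPCAM, KRT5, KRT14, PTPRC and CD3E held 0 to 5 counts, and the endothelial marker PECAM1 held 2 to 17 counts. Library totals ranged from 20850018 to 29822917 counts.

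The library labelled HDAC8 replicate 3 stood apart from the others of its group. A chi-square statistic of the counts over genes, divided by its degrees of freedom, was 6.19 between HDAC8-labelled replicates 1 and 2, but 16.9 and 15.2 between replicate 3 and each of these. Pairs of EV-labelled libraries gave 4.61 to 12.1, and pairs from different groups gave 34.3 to 47.9. Many ribosomal protein genes differed between this library and replicates 1 and 2, so the main count of calls is given with and without it.

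The cytosolic ribosome is built from ribosomal RNA and one copy of most of these proteins, which are made in the cytoplasm and imported into the nucleolus for assembly. The small subunit reads the messenger RNA and the large subunit forms the peptide bond. Most of their messenger RNAs begin with a C followed by an uninterrupted run of C and T, the 5′ terminal oligopyrimidine (TOP) motif, through which growth signals set their translation. Several core proteins have a paralogue, and some of these are known for expression in particular tissues, such as RPL3L in muscle and RPL10L and RPL39L in testis.

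The following 30-base windows around the annotated transcript start (10 bases before it and 20 from it, RefSeq, GRCh38.p14, gene strand) are shown because the start run is a shared sequence feature that the choice of genes did not use. Capitals mark the run of C and T that begins at the annotated start. RPS23, RPL41, RPL13A and RPLP0 were called higher in the HDAC8-labelled libraries, RPS6 and RPL26 were not called, RPL36A and RPL36AL are a pair, and RPL7L1 was called lower and has no such run. From the annotated start, the run of RPL36AL has only 3 bases, too short for the motif counted below at that exact position. RPL36AL does have the motif when it may begin within 5 bases of the annotated start. RPS29, RPS26, RPL9, RPL15 and RPS4X, not shown, were also called higher but had no such motif within 5 bases of an annotated start.
RPS23: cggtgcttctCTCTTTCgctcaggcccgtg
RPL41: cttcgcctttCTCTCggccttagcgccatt
RPL13A: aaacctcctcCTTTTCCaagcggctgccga
RPLP0: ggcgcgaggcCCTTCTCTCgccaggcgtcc
RPS6: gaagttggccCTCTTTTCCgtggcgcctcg
RPL26: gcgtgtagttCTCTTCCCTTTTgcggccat
RPL36A: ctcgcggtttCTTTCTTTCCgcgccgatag
RPL36AL: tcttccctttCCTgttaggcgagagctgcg
RPL7L1: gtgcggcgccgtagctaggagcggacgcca

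These windows lie at chr5:82278335-82278364 on the minus strand for RPS23, chr12:56116623-56116652 (plus) for RPL41, chr19:49487598-49487627 (plus) for RPL13A, chr12:120201092-120201121 (minus) for RPLP0 and chr9:19380217-19380246 (minus) for RPS6. Those of RPL26, RPL36A, RPL36AL and RPL7L1 lie at chr17:8383174-8383203 (minus), chrX:101391001-101391030 (plus), chr14:49620607-49620636 (minus) and chr6:42879606-42879635 (plus). A start was available for 67 of the 84 genes that could be tested. A C at the annotated start followed by at least 4 bases of C or T, searched on the gene strand only, was found for 47 of them (70.1%), against 1404 of 27305 genes in the whole table of starts (5.14%). The motif was found in 29 of 38 genes called higher (76.3%), in 17 of 24 core genes that were not called higher (70.8%) and in 1 of 5 paralogues. Allowing the motif to begin within 5 bases of the annotated start gave 55 of 67 genes (82.1%), 2 of 5 paralogues and 25.2% of all genes. The motif was therefore common in core genes with and without a called difference.

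Levels of the core genes differed more among large-subunit than among small-subunit genes. Expressed as CPM per kilobase of coding sequence, as a mean over the 6 libraries, they ran from 164 for RPL27 to 6562 for RPL41, a 40.0-fold range. RPL41 encodes a very short peptide of the large subunit with a coding sequence of 75 bases, so its level per length rests on few bases. RPL10, which joins the large subunit late, followed at 2345, then RPS29 at 2326, the stalk gene RPLP1 at 2227 and RPS2 at 2114. Small-subunit core genes spanned 6.26-fold, from 372 for RPS27 to 2326 for RPS29. Untranslated regions were not counted in these lengths, so the order of neighbouring genes is uncertain.

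Most ribosomal protein genes were higher in the HDAC8-labelled libraries, by a modest amount. Of 84 genes tested, 45 were called higher (adjusted p below 0.05, edgeR quasi-likelihood test over 16195 genes), against 11.1% of all genes, and 1 was called lower, against 11.7%. The other 38 did not pass. The log2 fold change was positive for 79 of 84 genes, against 51.4% of all genes, with a median of 0.23 (quartiles 0.15 and 0.28), or 17.4%, where the median of all genes was 0.0091. No member reached the study's fold threshold of 0.58 on the log2 scale. Together with adjusted p below 0.05, 4.07% of all genes passed it upwards and 3.45% downwards. All 3 HDAC8-labelled libraries lay above all 3 EV-labelled libraries for 43 genes, against 18.7% of all genes, and below them for 1 gene, against 19.3%. Among 3574 other genes at the levels of the core genes, at least 66.9 CPM, 17.8% were higher, 20.2% lower and the median was -0.0046.

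**Figure D1:**
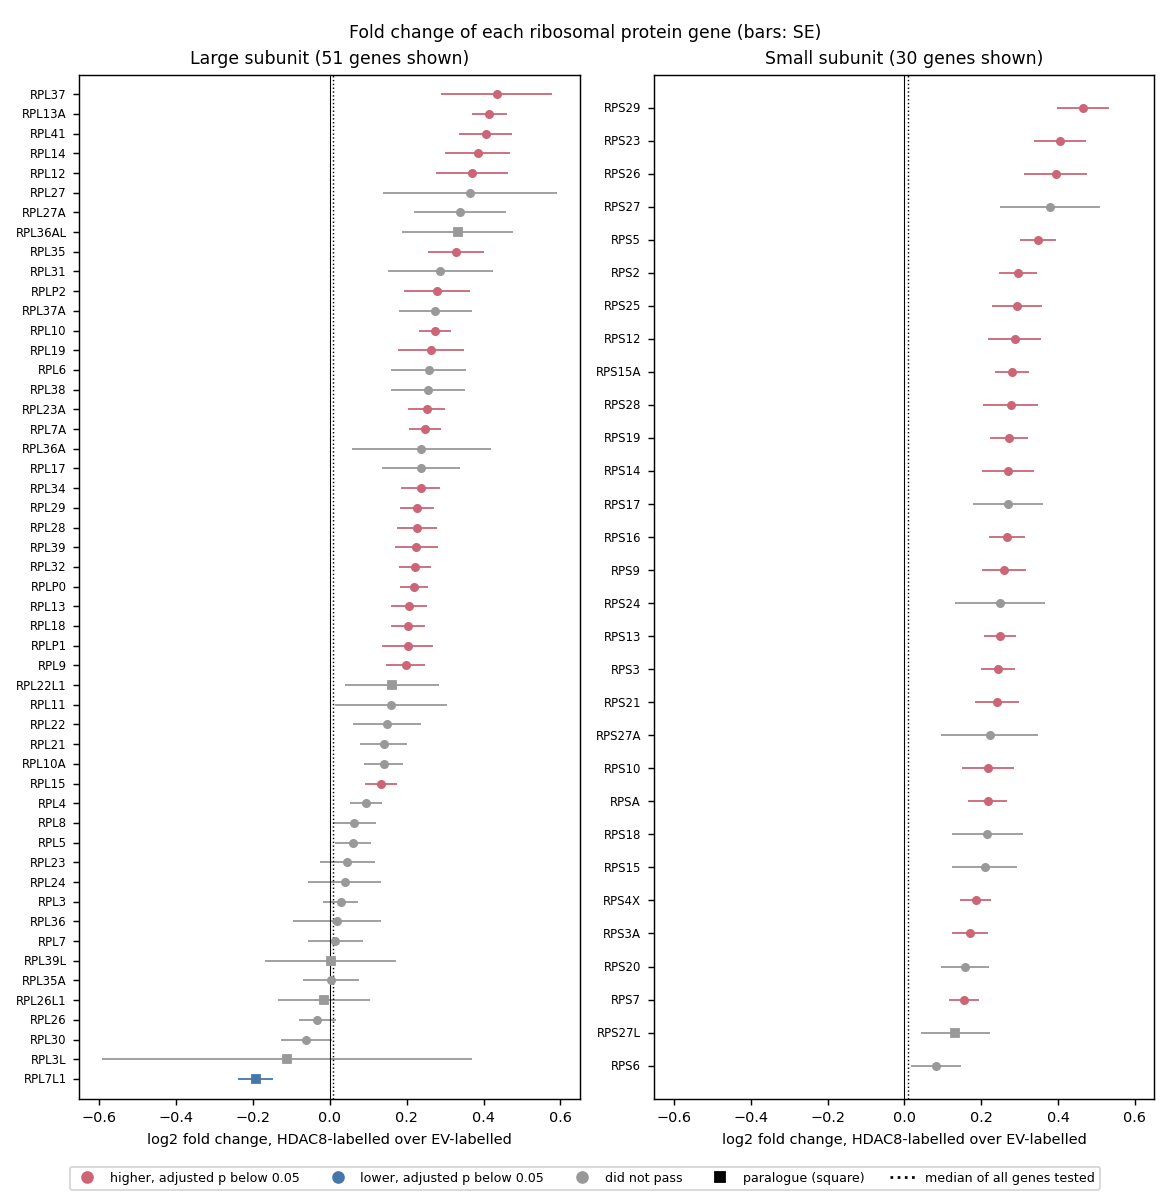
Log2 fold change (HDAC8-labelled over EV-labelled, horizontal axis) of the large-subunit and small-subunit genes tested, ordered by value and without the few that are not reported here, with SE bars from edgeR. Red points were called higher, the blue square (RPL7L1) was called lower, grey points did not pass, squares are paralogues and the dotted line is the median of all genes tested, 0.0091.

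Both subunits contributed. In the large subunit 23 of 52 genes were called higher and 1 lower, with a median log2 fold change of 0.22. In the small subunit 22 of 32 were called higher and 0 lower, with a median of 0.25, and all 32 had a positive value, up to 0.46 for RPS29. Without an adjustment for multiple testing, 32 large-subunit and 27 small-subunit genes had a p below 0.05 with a positive value, against 16.6% of all genes. Among core genes alone the counts were 23 of 46 large and 22 of 31 small. None of the 7 paralogues tested was called higher by edgeR at this threshold, against 11.1% of all genes. With so few genes, a count of 0 is near that share. Of the 7, 1 had an unadjusted p below 0.05 with a positive value. The difference between the subunits in the number of calls was not tested.

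Summed over genes, the groups were also apart. The genes together held 3.55%, 3.56% and 3.58% of counts in the EV-labelled libraries and 4.14%, 4.12% and 3.85% in HDAC8-labelled replicates 1, 2 and 3. The means were 3.57% ± 0.0155 and 4.04% ± 0.161 (SD, n = 3 each), a ratio of 1.13, and the groups did not overlap (two-sided exact permutation test p = 0.1, the smallest that 3 against 3 libraries allow). Large-subunit genes held 2.12% ± 0.0177 against 2.37% ± 0.111 and small-subunit genes 1.44% ± 0.0106 against 1.67% ± 0.0505, each with exact permutation p = 0.1. These are bulk libraries, in which more such RNA per cell and more cells with a high level cannot be told apart.

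**Figure D2:**
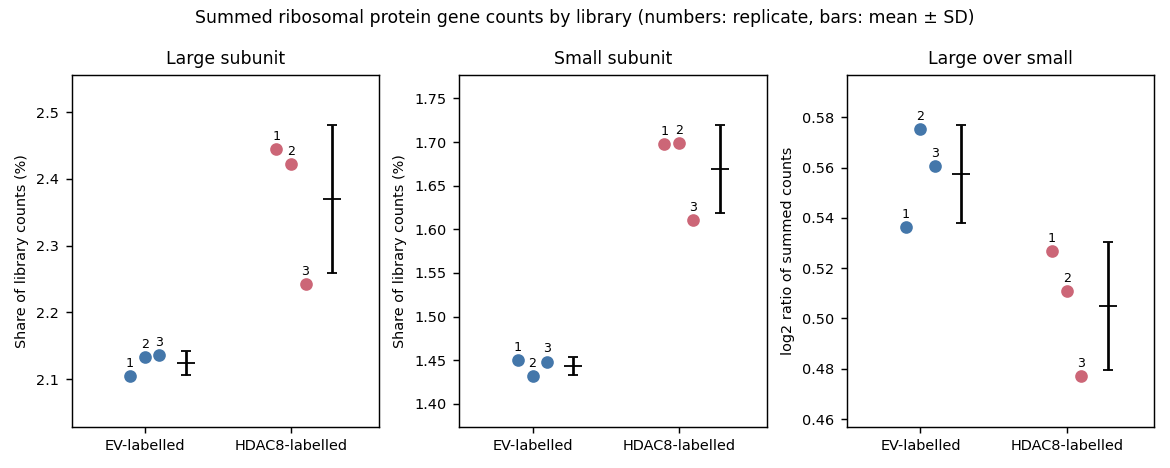
Share of library counts (%, linear axes that do not start at 0) on large-subunit and small-subunit genes, and the log2 ratio of the summed counts, in each library, with replicate numbers and the mean ± SD of 3 libraries. HDAC8-labelled replicate 3 lies below replicates 1 and 2 for both subunits but above the 3 EV-labelled libraries.

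The ratio between the subunits differed by little. The log2 ratio of summed large-subunit to small-subunit counts was 0.54, 0.58 and 0.56 in the EV-labelled and 0.53, 0.51 and 0.48 in the HDAC8-labelled libraries, so the lowest EV-labelled value lay just above the highest HDAC8-labelled one. The means differed by -0.05 (exact permutation p = 0.1, the smallest possible). With the median over genes in place of the sum, the groups overlapped and the difference was -0.08 (exact permutation p = 0.4).

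Among the small-subunit genes, RPS29 had the highest value. RPS29, a small zinc-binding protein of the head of the subunit, stood at 343, 305 and 337 CPM in the EV-labelled and 481, 474 and 405 CPM in the HDAC8-labelled libraries. All 3 HDAC8-labelled libraries were above the EV-labelled ones, with replicate 3 nearest to them, and the log2 fold change was 0.46 (SE 0.07, edgeR adjusted p = 0.000396). RPS23, which lies at the decoding centre, stood at 453, 433 and 464 CPM and at 618, 647 and 524 CPM. It did not overlap between groups either, with a log2 fold change of 0.41 (SE 0.07, edgeR adjusted p = 0.00114).

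RPL13A, a large-subunit protein also known for a role outside the ribosome in the interferon response, stood at 709, 654 and 702 CPM and at 890, 945 and 920 CPM. Its 3 HDAC8-labelled libraries were close together and all above the EV-labelled ones, with a log2 fold change of 0.42 (SE 0.04, edgeR adjusted p = 4.04e-05).

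RPL41 and RPL37 were also among the 6 genes with the largest called increase. RPL41 stood at 422, 395 and 454 CPM against 581, 601 and 501 CPM, without overlap, and its log2 fold change was 0.40 (SE 0.07, edgeR adjusted p = 0.00136). RPL37, a zinc-binding protein at the base of the large subunit, stood at 151, 164 and 166 CPM against 243, 254 and 153 CPM. In RPL37, replicate 3 lay inside the EV-labelled range (log2 fold change 0.43, SE 0.14, edgeR adjusted p = 0.0487). The call of RPL37 was lost with DESeq2 (adjusted p = 0.154), with TMM factors without the members (0.053), with library totals only (0.0571), with the replicate block (0.0596) and without any one library other than HDAC8-labelled replicate 3 (0.115 to 0.209).

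The stalk of the large subunit, which recruits the translation factors with GTPase activity, consists of RPLP0 and the dimers of RPLP1 and RPLP2. All 3 genes were called higher. RPLP0 stood at 1609, 1539 and 1594 CPM against 1849, 1804 and 1869 CPM, without overlap (log2 fold change 0.22, SE 0.04, edgeR adjusted p = 0.00116). RPLP1 stood at 713, 719 and 693 CPM against 884, 846 and 714 CPM, so replicate 3 lay within the EV-labelled range (0.20, SE 0.07, edgeR adjusted p = 0.0476). RPLP2 stood at 166, 174 and 175 CPM against 232, 219 and 174 CPM, with the same overlap (0.28, SE 0.09, edgeR adjusted p = 0.0364). Leaving out any one library other than HDAC8-labelled replicate 3 ended the calls of RPLP1 (edgeR adjusted p from 0.0999 to 0.182) and RPLP2 (0.0955 to 0.139). The call of RPLP1 was also lost with TMM factors without the members (0.0508) and library totals only (0.0654), and that of RPLP2 with the replicate block (0.0508).

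The pair RPL5 and RPL11, which with 5S ribosomal RNA forms a particle that can bind MDM2, did not pass. RPL5 stood at 651, 631 and 643 CPM against 679, 700 and 628 CPM (log2 fold change 0.06, SE 0.05, edgeR adjusted p = 0.418). RPL11 stood at 185, 214 and 218 CPM against 267, 260 and 162 CPM (0.16, SE 0.15, edgeR adjusted p = 0.499). In both, replicates 1 and 2 were above every EV-labelled library and replicate 3 was below every one.

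RPSA, RPS27A and RPS6 are described for their roles. RPSA, which encodes a protein of the subunit's surface also known as the laminin receptor, stood at 762, 694 and 706 CPM against 812, 814 and 886 CPM, and was called higher (log2 fold change 0.22, SE 0.05, edgeR adjusted p = 0.00865, and 0.0543 without EV-labelled replicate 3). RPS27A, which encodes a fusion of ubiquitin to a small-subunit protein, stood at 282, 294 and 286 CPM against 371, 389 and 246 CPM and did not pass (0.22, SE 0.13, edgeR adjusted p = 0.249). RPS6, the substrate of the S6 kinases, stood at 709, 707 and 717 CPM against 804, 793 and 662 CPM and did not pass (0.08, SE 0.06, edgeR adjusted p = 0.411).

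RPL10 and RPS2, among the most abundant genes per coding length, were called higher. RPL10 stood at 1390, 1310 and 1392 CPM against 1590, 1670 and 1682 CPM (log2 fold change 0.27, SE 0.04, edgeR adjusted p = 0.000528). RPS2, of the channel by which messenger RNA enters, stood at 1713, 1550 and 1741 CPM against 1973, 2046 and 2126 CPM (0.30, SE 0.05, edgeR adjusted p = 0.00104).

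The per-library shifts were larger in HDAC8-labelled replicates 1 and 2 than in replicate 3. Relative to the mean of the EV-labelled libraries, the median shift over the 84 genes was 0.27, 0.28 and 0.04 on the log2 scale in HDAC8-labelled replicates 1, 2 and 3, while over all genes it was at most 0.0069. Replicates 1 and 2 had 79 and 80 genes above every EV-labelled library, against 35.9% and 35.1% of all genes. Replicate 3 had 43 of 84 genes above every EV-labelled library, against 35.6% of all genes, and 28 below every one, against 35.5%, so the latter count was near the share of all genes. It was the lowest of its group for 67 of 84 genes, against 5984 of 16195 genes overall. For the core genes of the large subunit the median shift in replicate 3 was 0.02, and for those of the small subunit it was 0.15.

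**Figure D3:**
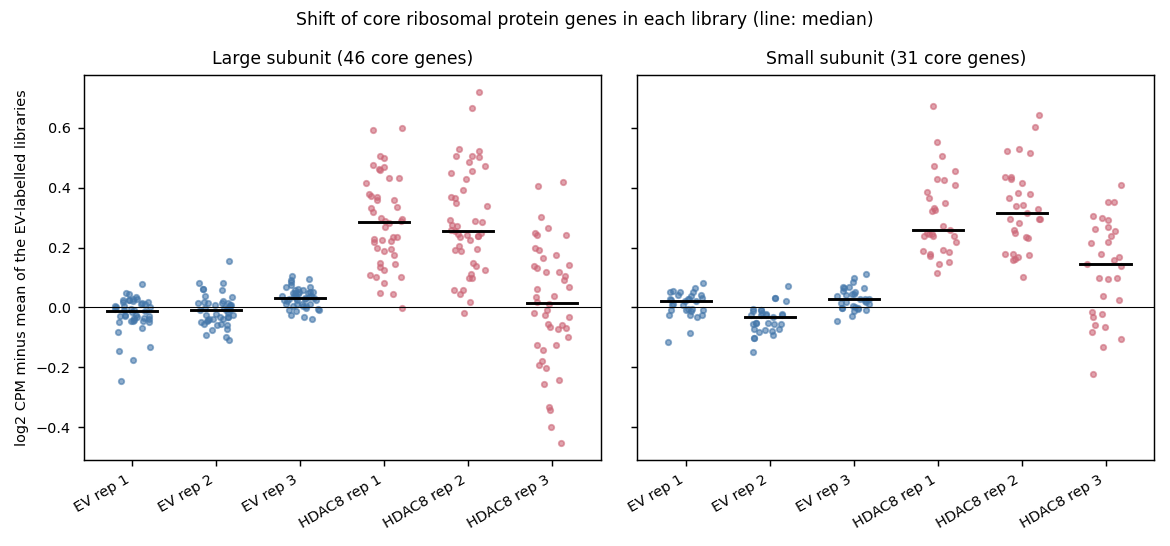
Log2 CPM of each core gene minus its mean in the 3 EV-labelled libraries (vertical axis), by library, for 46 large-subunit and 31 small-subunit genes, where horizontal lines are medians. HDAC8-labelled replicates 1 and 2 lie almost wholly above 0, and replicate 3 spreads to both sides.

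Without HDAC8-labelled replicate 3 the number of calls rose. Then 69 genes were called higher, against 12.0% of all genes, among them all 45 of the first count and 24 others. As before, 1 was called lower (RPL7L1), against 12.7%. The large-subunit count of genes called higher rose from 23 to 38 and the small-subunit count from 22 to 31. The median SD of log2 CPM within the HDAC8-labelled group was 0.14, against 0.05 within the EV-labelled group and 0.04 for HDAC8-labelled replicates 1 and 2 alone. Over all genes tested the corresponding medians were 0.12, 0.10 and 0.08. Leaving out any other library gave 32 to 36 genes called higher.

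The genes fell into different patterns in replicate 3, described here with genes chosen after their values were seen. For 22 genes, 15 large and 7 small, replicates 1 and 2 lay above every EV-labelled library and replicate 3 below every one, a pattern that 2.84% of all genes had. RPL27 was the extreme, at 48.8, 64.7 and 61.8 CPM in the EV-labelled libraries and 87.7, 95.9 and 42.3 CPM in the HDAC8-labelled ones, so that replicate 3 was the lowest of the 6 and replicate 2 the highest. Its replicate 3 minus replicates 1 and 2 was -1.11 on the log2 scale. RPL36A followed at -0.88, with RPL37 and RPL11 at -0.70 each and RPL36AL at -0.68. At the other end, RPS28 stood at 254, 221 and 262 CPM against 279, 288 and 325 CPM, with replicate 3 the highest of all. RPS21, RPSA and RPS2 also had replicate 3 above replicates 1 and 2, by 0.17, 0.12 and 0.08.

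**Figure D4:**
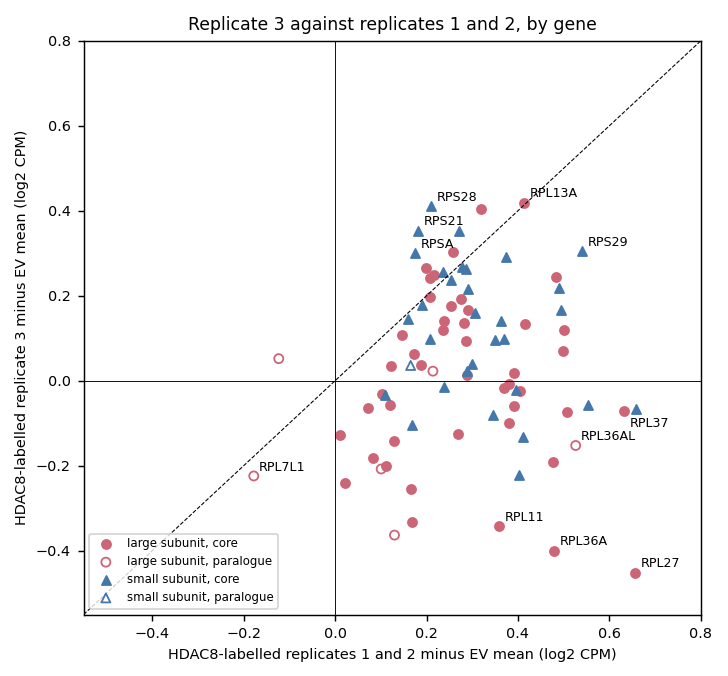
Each of the 84 genes by its mean shift in HDAC8-labelled replicates 1 and 2 (horizontal axis) and in replicate 3 (vertical axis), both as log2 CPM minus the EV-labelled mean, with the diagonal of equal shift dashed. Most points lie below the diagonal, with RPL27 lowest and RPS28 and RPL13A among the highest.

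A similar ordering of these genes was visible within the EV-labelled group when its replicate 1 was set apart. No other split of that group and no value over all genes is given here. Across the 84 genes, the difference between HDAC8-labelled replicate 3 and replicates 1 and 2 correlated with that between EV-labelled replicate 1 and replicates 2 and 3 (Pearson r = 0.83, Spearman rho = 0.78, as a description across genes that share libraries). RPL27 at 48.8 CPM and RPL36A at 57.2 CPM were, for example, lowest of their group in EV-labelled replicate 1. The difference in replicate 3 also moved with coding GC content, with r = 0.29 across the 84 genes and r = 0.43 across 3607 coding genes at the same levels. For coding length these were r = 0.28 and r = 0.22. With mean level (log2 CPM) the correlation was r = 0.26 (Spearman rho 0.51) across the 84 genes and r = 0.63 across the 77 core genes. Across those core genes, GC content had r = 0.29 and coding length r = 0.24. The mitochondrially encoded share of counts was 1.18% in HDAC8-labelled replicate 3 and 1.32% to 1.54% in the other libraries. The part of these properties in the result was not tested.

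The contrast between libraries was smallest for the longest core genes. The 26 core genes with the shortest coding sequence (75 to 405 bases) had a median shift of 0.37 in replicates 1 and 2 and of -0.00063 in replicate 3. The middle 26 (405 to 576 bases) had 0.29 and 0.066, and the 25 with the longest (582 to 1281 bases) had 0.21 and 0.12. The median of replicate 3 minus replicates 1 and 2 was -0.28, -0.26 and -0.097 from the shortest to the longest. The share called higher was 53.8%, 57.7% and 64% in the same order, so calls did not fall with length. Among 117 other coding genes of 405 bases or less at the same levels, the median shifts were 0.10 and 0.0058, and 20.5% were called higher. No such comparison is given for longer genes.

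The paralogues had a lower median than the core genes, measured with less precision. Of the 10, RPL10L, RPS4Y1 and RPS4Y2 were too low to be tested, and the median log2 fold change of the other 7 was 0.0023, against 0.24 for core genes. Of the 7, 4 had a positive value, against 51.4% of all genes. The median SE of the 7 was 0.12, against 0.065 for core genes. HDAC8-labelled replicate 3 was the lowest of its group for 6 of the 7, against 5984 of 16195 genes overall. RPL7L1, a relative of RPL7 that acts in the assembly of the large subunit, was the only member called lower. It stood at 177, 171 and 171 CPM in the EV-labelled and 156, 150 and 148 CPM in the HDAC8-labelled libraries, without overlap and with replicate 3 close to the others (log2 fold change -0.19, SE 0.05, edgeR adjusted p = 0.00957). Without EV-labelled replicate 1 this call was lost (-0.18, edgeR adjusted p = 0.0544). RPL7 stood at 641, 637 and 643 CPM against 698, 685 and 557 CPM (0.01, SE 0.07, edgeR adjusted p = 0.918). Thus replicate 3 had the lowest RPL7 of all libraries.

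The share of RPL7L1 in the summed counts of the pair was 21.7%, 21.2% and 21.1% in the EV-labelled and 18.3%, 18.0% and 21.0% in the HDAC8-labelled libraries. The groups did not overlap, by a narrow margin in replicate 3 (exact permutation p = 0.1, adjusted over 7 pairs 0.70). RPL36AL was the only paralogue above its partner, with 60.0% to 64.5% of the pair's counts and equal coding lengths. RPL36AL stood at 90.1, 103 and 103 CPM against 137, 147 and 88.7 CPM (log2 fold change 0.33, SE 0.14, edgeR adjusted p = 0.129). RPL36A stood at 57.2, 68.4 and 69.0 CPM against 90.0, 90.7 and 48.9 CPM (0.24, SE 0.18, edgeR adjusted p = 0.401). The pair thus moved together across the 6 libraries, and the share of RPL36AL overlapped between groups (exact permutation p = 0.2, adjusted 0.70).

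**Figure D5:**
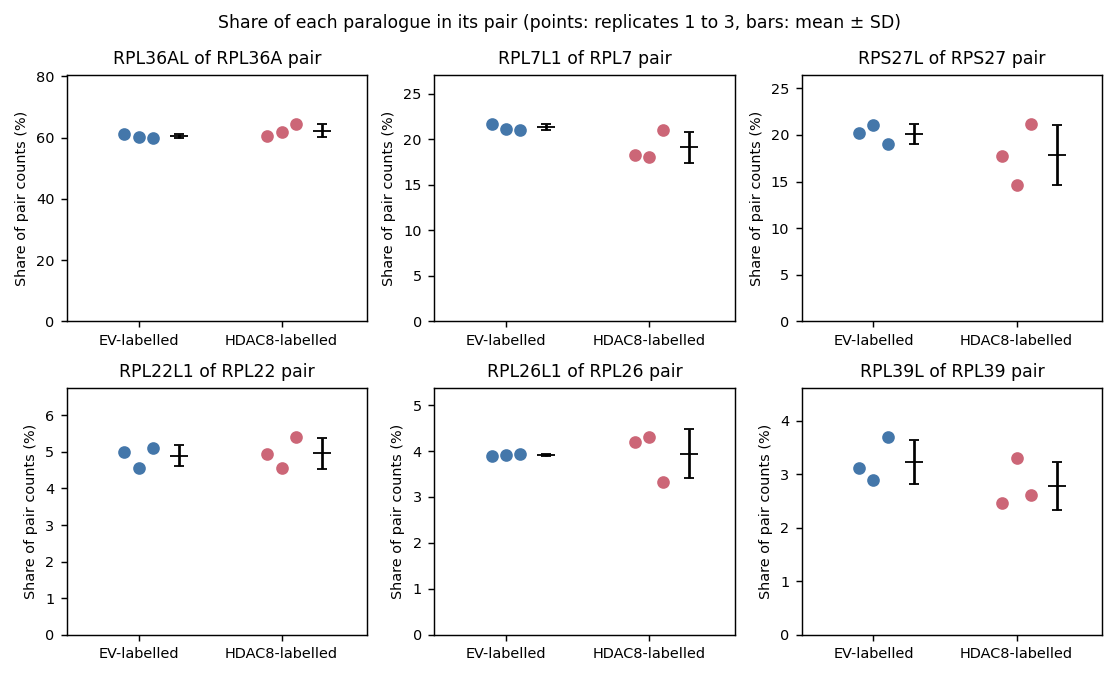
Share of each paralogue in the summed counts of its pair (%, axes from 0), for 6 pairs, with the 3 libraries of each group as points in replicate order and the mean ± SD beside them. RPL36AL holds over 60% on average in both groups and RPL7L1 about 21% in the EV-labelled libraries. Of the 6 shares, only that of RPL7L1 does not overlap between groups.

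The other paralogues were minor partners. Per kilobase of coding sequence, RPL22 was 18.4-fold above RPL22L1, RPL26 24.6-fold above RPL26L1, RPL39 32.8-fold above RPL39L, RPS27 4.35-fold above RPS27L and RPL7 4.09-fold above RPL7L1, while RPL3 was 3694-fold above RPL3L. RPL22L1 stood between 9.80 and 13.0 CPM and RPL39L between 7.46 and 10.9 CPM. RPL26L1 stood at 26.0, 25.6 and 25.4 CPM against 28.3, 27.9 and 19.8 CPM. RPS27L, a target of p53, stood at 20.4, 20.9 and 20.1 CPM against 24.9, 21.3 and 21.0 CPM, above all EV-labelled libraries in each case but with edgeR adjusted p = 0.340. Their partners differed in their calls. RPL39 was called higher (0.22, SE 0.06, edgeR adjusted p = 0.0121, but 0.064, 0.0506 and 0.068 without EV-labelled replicate 1, EV-labelled replicate 3 and HDAC8-labelled replicate 2), while RPL22 (0.15), RPL26 (-0.03), RPL3 (0.03) and RPS27 (0.38, SE 0.13, edgeR adjusted p = 0.058) were not. RPS4X, the X-linked partner of the Y-linked genes, stood at 783, 743 and 755 CPM against 885, 850 and 860 CPM and was called higher (0.19, SE 0.04, edgeR adjusted p = 0.00565).

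Ribosomal protein genes have many processed pseudogenes, copies that can take reads from their parent. The table holds 1144 pseudogenes named after 77 members, of which 465 had a count in any library and 55 could be tested. They held 0.0577% ± 0.00176 of counts in the EV-labelled and 0.0662% ± 0.00279 in the HDAC8-labelled libraries (SD, n = 3 each, exact permutation p = 0.1), and 1.59% and 1.61% of the counts of members and pseudogenes together (exact permutation p = 0.9). RPL9P9, RPS2P5 and RPL23AP42 held 70.2% of all pseudogene counts. The pseudogenes of RPL9 held 50.4% and those of RPL23A 21.5% of their family's counts, so these values are uncertain, while 73 tested members had under 1%. Summing each member with its pseudogenes before the fit again gave 45 genes called higher, and these were the same 45.

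Related genes, from lists chosen with earlier results of these data known, moved less uniformly. FAU and RACK1, which the symbol rule does not reach, were called higher, with log2 fold changes of 0.17 and 0.13 (edgeR adjusted p = 0.0388 and 0.0389). FAU encodes a ubiquitin-like fusion to a ribosomal protein, and RACK1 is a scaffold on the small subunit. Of 25 translation factors, 7 were called higher and 3 lower, against 11.1% and 11.7% of all genes, with a median of 0.03, so the lower count was near the share of all genes. EEF1A1, which delivers aminoacyl-tRNA, was among the higher ones at 5941 ± 129 against 7310 ± 300.2 CPM (SD, n = 3 each), and EIF4G1, the scaffold of the cap-binding complex, was among the lower ones at 905 ± 26.4 against 749 ± 24.2 CPM.

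Of 41 ribosome assembly factors, 3 were called higher and 8 lower, against the same 11.1% and 11.7%, with a median of -0.03. Among other genes at the levels of the core ribosomal protein genes 20.2% were lower. The examples that follow, SBDS and NOP56, are among those called lower, and the 3 called higher are not named. SBDS, which helps release the large subunit for translation, stood at 84.4 ± 1.74 against 59.8 ± 5.48 CPM (log2 fold change -0.49, SE 0.07, edgeR adjusted p = 0.000304). NOP56, of the box C/D small nucleolar particles, stood at 207 ± 3.13 against 155 ± 1.66 CPM (-0.41, SE 0.04, edgeR adjusted p = 3.21e-05). None of the 19 genes of RNA polymerase I and growth control, MYC and MTOR included, was called in either direction by edgeR. At an unadjusted p below 0.05 there were 2 higher and 4 lower, and DESeq2 called 1 lower. Of 8 noncoding hosts of small nucleolar RNAs, which carry TOP starts in several cases, 3 were called higher. These were ZFAS1 (0.37), SNHG8 (0.27) and SNHG5 (0.19), while GAS5 (-0.0068) did not pass.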

How the data were processed

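RNA of SK-MEL-28 cells was sequenced, and the labels (Aurum kit, rRNA depletion, directional library) and the study's Methods (Direct-zol, TruSeq) describe different preparations. Estimated counts for each Ensembl gene were deposited without normalization. The submitters' processing notes name Trimmomatic, STAR, RSEM, DESeq2 and GRCh38. Reads shared by near-identical genes are apportioned by RSEM, and 5351 to 5685 values per library were not whole. A second deposited table of the authors' own comparison (log2 fold changes and p-values) was not used. No batch is given.

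The members and gene lists were chosen with earlier results of these data known. Libraries were grouped by their labels, 3 against 3. Nothing in the labels says that the replicates came from separate cultures, so p-values measure only the spread between these libraries, which may be technical. Counts were rounded, filtered with filterByExpr and scaled with TMM factors (0.973 to 1.03), and tested with the quasi-likelihood test of edgeR 4.0.16 in R 4.3.3, with Benjamini-Hochberg adjustment over all 16195 genes tested. A gene was called at adjusted p below 0.05. CPM are counts per 1e6 of the scaled library. Shifts and SDs per library are on the scale of log2(CPM + 0.5). Shares were compared with two-sided exact permutation tests over libraries. A level of 3 counts corresponds to 0.101 to 0.144 CPM, which covers counting error only. Gene positions and coding lengths came from GENCODE 44. The scripts were tested on simulated data.

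The genes named were the 6 highest and 6 lowest called members, all paralogue pairs, the stalk genes, RPL5, RPL11, RPSA, RPS27A, RPS6, the 3 most abundant members of each subunit per length, and up to 2 list genes in each direction. Any others were chosen after their values were seen. Alternatives were DESeq2 1.42.0, other scalings and filters, unrounded counts, pseudogenes summed with parents, a replicate block and leaving out each library. Whether same-numbered libraries share a day or culture is not stated, so the main fit did not pair them. Some items are not reported here by name, and the counts include them.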

Additional observations from a re-analysis of the deposited data

How the results depend on the processing

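The number of genes called higher stayed above the share of all genes under every alternative that kept the threshold on p alone: 46 with DESeq2, 41 with library totals only, 41 with TMM factors computed without the members, 49 with upper-quartile factors, 49 with at least 10 counts in every library, 60 without a filter, 45 with unrounded counts and 45 with pseudogenes summed. Same-numbered libraries deviated with correlations of -0.05, -0.12 and -0.08. With 3 libraries per group these values cannot show whether such libraries share a day or culture. A replicate block gave 38 genes called higher, all among the 45. Leaving out one library gave 32 to 69 members higher and 0 to 1 lower, and 15 to 38 large-subunit members higher. Of all genes, 6.71% (no filter) to 12.0% (minimum of 10 counts) were called higher in the fits on all libraries. With one library left out these shares were 7.50% to 12.0%. Only the library labelled HDAC8 replicate 3 raised the count when left out.

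Requiring a log2 fold change of 0.58 left 0 members higher or lower, 0 in either subunit and 0 in each gene list. For the lists, the block left 1 ribosomal protein gene outside the rule, 4 translation factors and 1 assembly factor higher. Library totals left 1 assembly factor higher and called 3 genes of RNA polymerase I and growth control lower. In that list no filter called 1 higher and 1 lower, and DESeq2 and the minimum of 10 counts 1 lower each. Leaving out one library gave 1 to 3 genes outside the rule higher, 2 to 8 translation factors higher and 1 to 3 lower, 0 to 7 assembly factors higher and 4 to 9 lower, 0 to 1 polymerase I genes higher and 0 to 2 lower, and 1 to 3 snoRNA hosts higher. Of all genes, 11.7% were called lower in the main fit and 12.7% without HDAC8-labelled replicate 3. The list counts are given as ranges, without a share called lower for each fit.

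The median of all genes moved to 0.0012 with the minimum of 10 counts, -0.018 with library totals, 0.017 with no filter and 0.017 with upper-quartile factors, and from -0.0040 to 0.014 with one library left out. Values near 0 changed sign without passing the test: with library totals RPL3 to -1.52e-06 and RPL7 to -0.015, and RPL39L to -0.0021 (TMM factors without the members), -0.0019 (minimum of 10 counts), -0.025 (library totals), -0.0060 (no filter) and -0.0042 (block). With one library left out, RPL3 ranged from -0.017 to 0.064, RPL3L from -0.27 to 0.058, RPL7 from -0.049 to 0.10, RPL26 from -0.077 to 0.0039, RPL26L1 from -0.11 to 0.12 and RPL39L from -0.18 to 0.12. Their cause was not tested. Depth limits the low paralogues: RPL3L stood at 0.345 to 0.604 CPM.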
